A study of Mus musculus with 6 samples.

Results

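The genes of GABA and glycine signaling were followed in the mouse suprachiasmatic nucleus (SCN), the hypothalamic circadian pacemaker, after a nocturnal light pulse. The group holds 33 listed genes for synthesis, breakdown, vesicular loading and reuptake of the 2 transmitters, for receptor subunits, for receptor-associated proteins and for the chloride transporters. Members were taken by gene symbol, as every probe set that the platform annotation assigned to a listed gene. The arrays held 43 such probe sets for 29 of the 33 genes, out of 20380 probe sets and 12393 genes named on the array. The signals of Slc6a11, Gabra4, Gabra5 and Glra2 were not analysed here, as no probe set carried their symbols, and these genes enter only the promoter and gene order descriptions.

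SCN tissue was isolated by laser capture from adult male C57BL/6 mice aged 2 to 4 months that had been kept under 14 h of light and 10 h of darkness for at least 2 weeks. The light pulse group received 30 minutes of light at 2400 lux, beginning 1 h after lights off, and the sham light pulse group was handled the same way in darkness. The SCN was collected when the pulse ended, 1.5 h after lights off, and each of the 3 arrays per group carried RNA from a pool of 3 mice, with 6 sections from each mouse. Values are MAS5 signals from Affymetrix Mouse 430A 2.0 arrays, in arbitrary units, for which the number of arrays limits the precision. Nothing states whether the pools were collected on separate days, so the p-values measure only the spread between these pools.

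GABA is the transmitter of nearly all SCN neurons. It is made from glutamate by the glutamic acid decarboxylases, loaded into vesicles together with glycine by the vesicular inhibitory amino acid transporter, and opens chloride channels (GABA-A receptors) or acts through G proteins (GABA-B receptors). Whether an open chloride channel inhibits or excites a neuron depends on the balance between chloride import by NKCC1 and export by KCC2. Glycine acts on a related family of chloride channels, and gephyrin anchors both families at the synapse.

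In the captured SCN Gad1 of the synthesis genes and the loading, GABA-B and chloride export genes gave signals well above the filter on low signals, whereas most receptor subunit genes did not pass it. A total of 20 member probe sets, for 15 genes, were among the 10340 kept for testing, where a probe set was kept if its rank 3 signal over the 6 arrays was at least 118.2. No member probe set passed the test of light pulse against sham light pulse after adjustment (limma, Benjamini-Hochberg over the 10340 probe sets, smallest adjusted p of a member 0.96), against 0.0677% of all kept probe sets. At an unadjusted p below 0.05, 2 member probe sets were lower after light and 0 were higher, where the shares over all kept probe sets were 2.21% lower and 2.11% higher. The 2 were a probe set of Glrb, the beta subunit of the glycine receptor, and a probe set of Gabarapl1, which encodes a GABA-A receptor-associated protein. The 3 light pulse arrays lay below the 3 sham arrays for 1 member probe set (4.46% of all kept probe sets) and above them for 1 (5.62%). With 3 arrays against 3, an exact permutation test cannot give a two-sided p below 0.1. In pooled tissue, fewer cells of a type and less RNA per cell cannot be told apart.

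**Figure D1:**
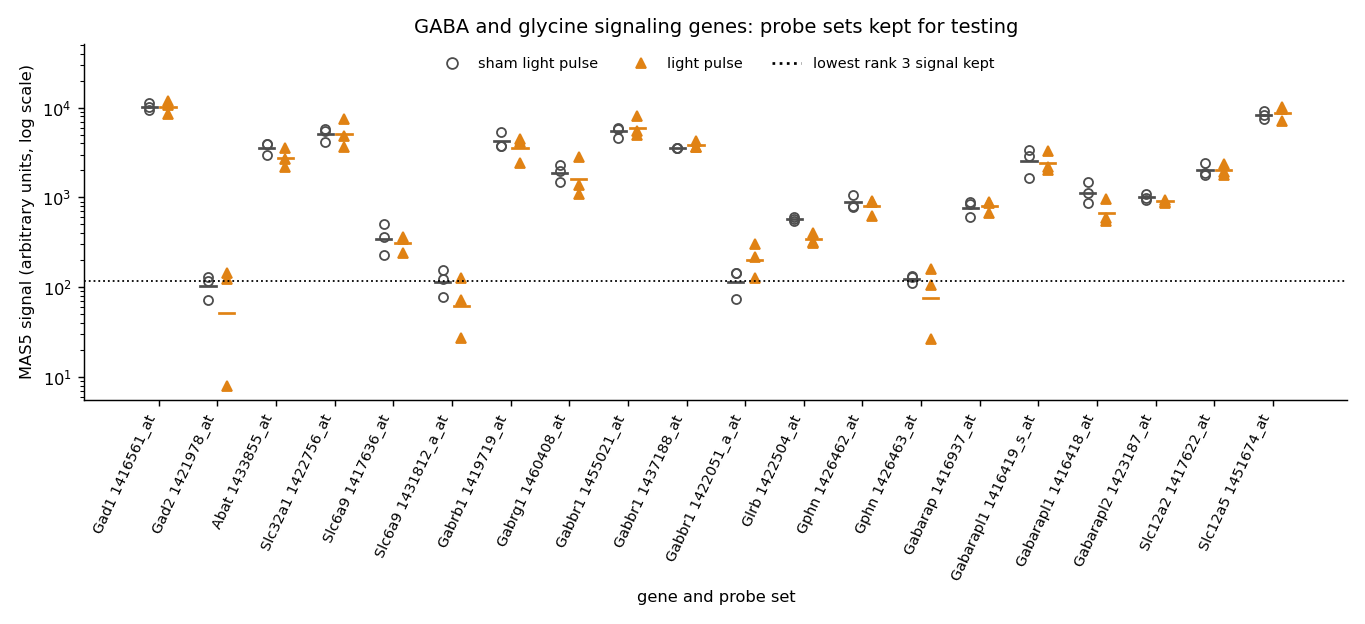
MAS5 signal (arbitrary units, log axis) of the 20 member probe sets kept for testing, with 3 sham light pulse arrays (circles) and 3 light pulse arrays (triangles) each. Short lines give geometric means, and a dotted line marks 118.2, the filter on the rank 3 signal. The groups overlap for every probe set except Glrb 1422504_at, where the light pulse arrays are lower, and Gabbr1 1437188_at, where they are higher. Heights of different probe sets cannot be read as relative amounts of mRNA.

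The promoter windows of 3 genes are shown because the study searched the promoters of its light-induced genes for the cyclic AMP response element (CRE), the site bound by CREB. They are Glrb and Gabarapl1, the members with the lowest unadjusted p, and Dusp1, a MAP kinase phosphatase gene that was higher after light (adjusted p = 0.00434, limma). Each window runs from 250 bases before to 50 bases after the annotated start site and was taken from RefSeq on GRCm38.p6, written in the direction of transcription. Capitals mark the CRE TGACGTCA and its core TGACG, searched on both strands, so that CGTCA is the core on the opposite strand. The core lies within the full motif. The study instead predicted CREs with binding-site matrices over a longer stretch before the start codon, and counted those conserved across several mammals. The exact matches counted here therefore cannot be set against its counts.
Glrb, chr3:80913611-80913910, minus strand: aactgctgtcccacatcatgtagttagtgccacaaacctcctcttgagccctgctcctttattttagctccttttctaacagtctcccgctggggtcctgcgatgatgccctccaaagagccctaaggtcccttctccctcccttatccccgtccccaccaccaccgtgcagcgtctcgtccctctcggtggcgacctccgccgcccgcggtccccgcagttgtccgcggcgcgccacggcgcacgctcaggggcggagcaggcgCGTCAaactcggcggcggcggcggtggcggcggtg
Gabarapl1, chr6:129532942-129533241, plus strand: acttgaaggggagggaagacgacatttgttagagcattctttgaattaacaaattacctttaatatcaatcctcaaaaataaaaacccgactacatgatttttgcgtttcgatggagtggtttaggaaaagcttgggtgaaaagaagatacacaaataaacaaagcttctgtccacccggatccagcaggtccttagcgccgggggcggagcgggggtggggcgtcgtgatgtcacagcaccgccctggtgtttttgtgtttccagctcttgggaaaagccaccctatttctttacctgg
Dusp1, chr17:26508423-26508722, minus strand: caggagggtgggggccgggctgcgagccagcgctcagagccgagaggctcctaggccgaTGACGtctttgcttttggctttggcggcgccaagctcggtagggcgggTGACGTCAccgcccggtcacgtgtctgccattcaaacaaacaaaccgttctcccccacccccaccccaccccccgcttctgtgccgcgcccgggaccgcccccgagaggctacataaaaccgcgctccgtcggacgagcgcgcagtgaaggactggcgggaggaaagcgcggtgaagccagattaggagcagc
The Glrb window held 1 core, 15 bases after the start site, and the Gabarapl1 window held neither motif. The Dusp1 window held the full motif and a further core. Of the 33 members, 29 had an entry, with 39 windows in all. The full motif was in 0 of the 39 windows, against 588 of all 32851 windows (1.79%). The core was in 7 member windows (17.9%), 1 each for Gad2, Glrb, Gabrr1, Slc6a9, Slc6a5, Gabarapl2 and Gabrb2, against 20.8% of all windows. Among the 7 genes that were called higher after light on these arrays, 5 had an entry, and 4 of these 5 genes had a core in a window. By windows it was 6 of 9 (66.7%), of which 3 are overlapping windows of Egr2 that hold the same cores. That comparison set was chosen by its response on these arrays.

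The genes for synthesis, breakdown and vesicular loading each had a probe set well above the filter, except Gad2. Gad1, which encodes the larger glutamic acid decarboxylase, gave signals of 9310.4, 11125.6 and 10203.4 on the sham arrays and 8440.0, 10778.4 and 11823.6 after light. The groups overlapped fully, with means of 10213 ± 907.6 and 10347 ± 1732 (SD, n = 3 arrays each). The fold change was 1.01 with a 95% confidence interval of 0.74 to 1.37 (adjusted p = 0.998, limma). A change of either direction within that interval is compatible with these arrays, and the interval is not a limit of detection. A second Gad1 probe set, 1416562_at, stayed between 31.8 and 135.8 and reached 118.2 on 1 array. Gad2, the smaller isoform, had 1 probe set near the filter, at 117.3, 130.3 and 71.7 on the sham arrays and 143.4, 122.4 and 8.0 after light. Its log2 difference of -0.99 (SE 1.12, adjusted p = 0.961, limma) came with light pulse replicate 3 far below the other 5 arrays. Slc32a1 encodes the vesicular transporter that GABA and glycine share. Its probe set 1422756_at gave 4186.4, 5444.1 and 5760.2 on the sham arrays and 3686.0, 7383.5 and 4821.2 after light. Both the lowest and the highest of the 6 values were light pulse arrays, and the interval of the fold change was 0.666 to 1.50. The second Slc32a1 probe set did not exceed 98.9.

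Abat, the GABA transaminase that degrades GABA, was measured by 1433855_at at 2930.4, 3907.5 and 3907.4 on the sham arrays and 2197.3, 3518.9 and 2702.9 after light. The 2 lowest values were light pulse arrays but the third exceeded sham replicate 1, and the log2 difference was -0.37 (SE 0.26, 95% interval -0.92 to 0.19, adjusted p = 0.96, limma). The other Abat probe set lay between 3.7 and 113.4.

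Of the reuptake genes, only Slc6a9, the glycine transporter GlyT1 that glia carry, had kept probe sets. Probe set 1417636_at gave 500.3, 230.1 and 366.2 on the sham arrays and 366.5, 342.9 and 238.6 after light. The light pulse arrays lay inside the range of the sham arrays, and the log2 difference was -0.16 (SE 0.37). Probe set 1431812_a_at was near the filter, at 78.7, 123.8 and 154.9 against 125.8, 27.0 and 71.1. Slc6a13, the GABA transporter GAT2, which is best known from the meninges, lay between 56.0 and 118.9, and Slc6a5, the neuronal glycine transporter GlyT2, between 3.9 and 58.3.

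The GABA-A receptor subunits were the largest group, with 14 genes listed and 12 with a probe set, but only Gabrb1 and Gabrg1 were kept. These channels are pentamers, usually of alpha and beta subunits with a gamma or delta subunit. Gabrb1, the beta 1 subunit, gave 5388.1, 3714.1 and 3687.6 on the sham arrays and 4165.1, 2407.5 and 4417.8 after light. Light pulse replicate 2 was the lowest and the other light pulse arrays lay within the sham range, with a log2 difference of -0.25 (SE 0.28, 95% interval -0.85 to 0.36). Without light pulse replicate 2 the difference was 0.03. Gabrg1, the gamma 1 subunit, gave 1469.3, 2279.8 and 1942.5 on the sham arrays and 1366.5, 1085.9 and 2795.1 after light for 1460408_at. The light pulse group again held both the lowest and the highest of the 6 values (log2 difference -0.22, SE 0.35). A second Gabrg1 probe set lay between 10.8 and 151.7 and reached 118.2 on 1 array.

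The other 10 subunit genes with a probe set had no kept one. Among the alpha subunits, which set the kinetics and benzodiazepine binding of the channel, Gabra2 lay between 6.4 and 96.7 over the 6 arrays and Gabra3 between 1.9 and 31.6. The 2 probe sets of Gabra6, the alpha subunit of cerebellar granule cells, did not exceed 102.1 and 28.5. Gabrb2, the beta 2 subunit, lay between 3.9 and 115.8 and Gabrg3, the gamma 3 subunit, between 2.9 and 58.9. Gabrd, the delta subunit of extrasynaptic receptors, did not exceed 28.6. Gabre, the epsilon subunit, reached 125.0 on 1 array, and Gabrq, the theta subunit, did not exceed 11.5. Of the rho subunits, known from the retina, Gabrr1 reached 122.1 on 1 array and lay between 2.7 and 66.1 on the other 5, and Gabrr2 did not exceed 44.7. A low signal depends on the probes as well as on the transcript and does not show that a subunit was absent, and no fold change was read from these probe sets.

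**Figure D2:**
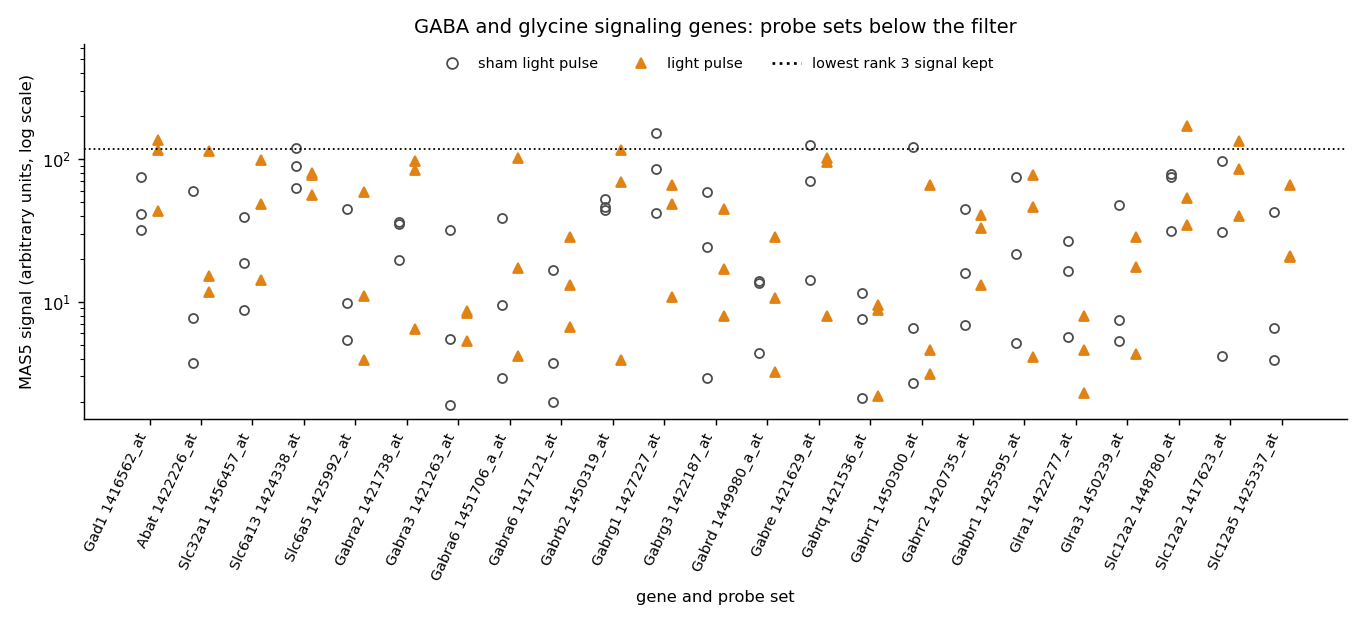
MAS5 signal (arbitrary units, log axis) of the 23 member probe sets below the filter, on 3 sham light pulse arrays (circles) and 3 light pulse arrays (triangles). A dotted line marks 118.2, the filter on the rank 3 signal, which no probe set reaches on more than 1 array. Values of one probe set spread widely within both groups.

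Several of the subunit genes lie beside each other in the genome. In the RefSeq gene order on GRCm38.p6, adjacent protein-coding members were Gabra6 and Gabrb2 on chromosome 11, Gabrr2 and Gabrr1 on chromosome 4, Gabrg1 and Gabra2 as well as Gabra4 and Gabrb1 on chromosome 5, Gabrg3 and Gabra5 on chromosome 7, and Gabra3 and Gabrq on chromosome X. Gabrg1 had a kept probe set and its neighbour Gabra2 did not.

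Gabbr1 encodes the GABA-B receptor subunit that binds GABA, and its 3 kept probe sets all had a log2 difference above 0. Probe set 1437188_at gave 3589.9, 3543.3 and 3511.1 on the sham arrays and 3660.7, 4300.8 and 3639.8 after light. All 3 light pulse arrays lay above the sham arrays, by a small margin on light pulse replicates 1 and 3. The means were 3548 ± 39.6 and 3867 ± 375.7 (SD, n = 3), and the fold change was 1.09 with a 95% interval of 0.779 to 1.52 (adjusted p = 0.97, limma, exact permutation p = 0.1). The sham values of this probe set were unusually close together, and with the arrays set to a common 75th percentile the groups overlapped. Without light pulse replicate 2 its log2 difference was 0.04. Probe set 1455021_at gave 5997.9, 4616.0 and 5751.9 on the sham arrays and 5495.2, 8012.9 and 4900.5 after light. Light pulse replicate 2 was the highest and the remaining values overlapped (log2 difference 0.15, SE 0.24, and -0.06 without light pulse replicate 2). Probe set 1422051_a_at gave 74.2, 144.7 and 142.2 on the sham arrays and 215.5, 304.3 and 126.6 after light. Light pulse replicate 3 was below 2 of the sham arrays, and the log2 difference was 0.81 (SE 0.53, 95% interval -0.32 to 1.95, adjusted p = 0.96, limma). The fourth Gabbr1 probe set did not exceed 76.9.

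Of the glycine receptor subunits, only Glrb, the beta subunit that binds gephyrin, was kept. Probe set 1422504_at gave 572.1, 548.8 and 606.9 on the sham arrays and 399.3, 320.0 and 308.8 after light. Each light pulse array lay below each sham array, and the means were 575.9 ± 29.2 and 342.7 ± 49.3 (SD, n = 3). The light pulse level was 0.592 of the sham level, with a 95% interval of 0.379 to 0.924, on a log2 difference of -0.76 (SE 0.30). The unadjusted p was 0.0244 and the adjusted p 0.96 (limma), and the exact permutation test gave p = 0.1, the smallest it allows here. The arrays of one group differed little for Glrb, with a residual SD of 0.151 on the log2 scale that was lower than for all but 2.79% of the kept probe sets of like mean signal. Of the listed alpha subunits that form the channel together with Glrb, Glra1 lay between 2.3 and 26.6 and Glra3 between 4.3 and 47.6. Glra2 had no probe set.

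The receptor-associated proteins were all measured, with 6 kept probe sets for 4 genes. Gabarapl1 encodes a ubiquitin-like protein of the GABARAP family, which takes part in receptor trafficking and in autophagy. Its probe set 1416418_at gave 1124.6, 861.8 and 1479.1 on the sham arrays and 594.5, 952.4 and 541.2 after light. Light pulse replicates 1 and 3 lay below all sham arrays, and light pulse replicate 2 lay above sham replicate 2. The light pulse level was 0.598 of the sham level (95% interval 0.369 to 0.968, log2 difference -0.74, SE 0.32). The unadjusted p was 0.0382 and the adjusted p 0.96 (limma), and the exact permutation p was 0.2. The second Gabarapl1 probe set, 1416419_s_at, gave 2900.6, 1647.1 and 3340.8 on the sham arrays and 2005.6, 3299.8 and 2192.1 after light. Its groups overlapped and its log2 difference was -0.05 (SE 0.31, 95% interval -0.72 to 0.62), so the probe sets of this gene did not show the same size of difference. The ending of its name marks probes that may match more than 1 transcript.

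The related Gabarap gave 835.8, 611.4 and 894.9 on the sham arrays and 860.6, 892.6 and 675.6 after light (log2 difference 0.06, SE 0.29). Gabarapl2 gave 1084.3, 993.1 and 938.2 on the sham arrays and 868.6, 887.1 and 946.8 after light. Its groups overlapped only through light pulse replicate 3 and sham replicate 3, and its log2 difference was -0.16 (SE 0.27). Gphn encodes gephyrin, the scaffold of inhibitory synapses, and its probe set 1426462_at gave 789.1, 804.0 and 1074.9 against 881.0, 615.3 and 922.8 (log2 difference -0.15, SE 0.30). The other Gphn probe set was near the filter and gave 131.4, 111.8 and 131.8 against 159.7, 26.4 and 105.0. Light pulse replicate 2 was the lowest array for both.

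The chloride transporters gave no difference larger than the spread between arrays. Slc12a5 encodes KCC2, the neuronal chloride exporter, and 1451674_at gave 7396.3, 8263.8 and 9245.6 on the sham arrays and 7069.9, 10126.9 and 9530.8 after light. The highest and the lowest value were both light pulse arrays, and the fold change was 1.06 with a 95% interval of 0.771 to 1.47 (adjusted p = 0.973, limma). Slc12a2 encodes NKCC1, the chloride importer, and 1417622_at gave 1870.0, 2418.6 and 1791.1 on the sham arrays and 1897.1, 1788.9 and 2352.5 after light. Its groups overlapped fully, with a fold change of 0.995 (95% interval 0.677 to 1.46). The remaining probe set of Slc12a5 did not exceed 65.8, and those of Slc12a2 did not exceed 170.4 and 132.9, with 1 array each at or above 118.2.

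**Figure D3:**
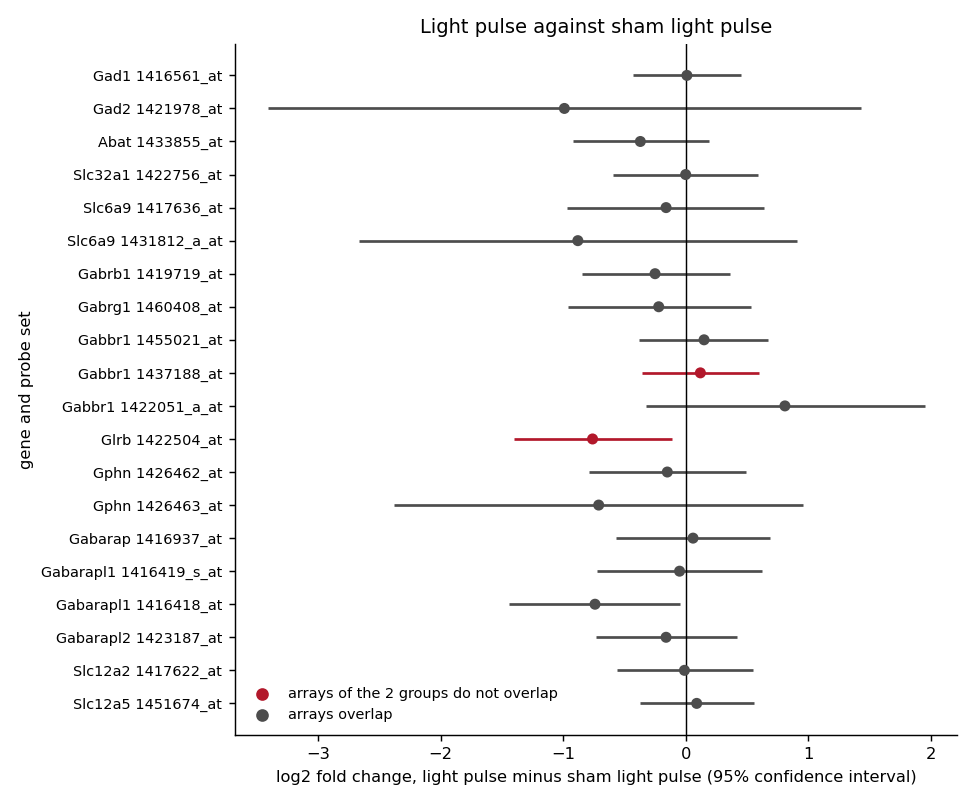
Log2 fold change, light pulse minus sham light pulse, with its 95% confidence interval from limma for the 20 kept member probe sets. Red marks the 2 probe sets whose groups do not overlap. The intervals of Glrb 1422504_at and Gabarapl1 1416418_at end below 0 before adjustment for multiple tests and the other 18 span 0.

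Over the 20 kept member probe sets, 14 had a log2 difference below 0 (70% against 49.9% of all kept probe sets), and the median was -0.15 against 0.00. These counts carry no test, since probe sets of one gene and genes of one array are not independent. A difference within 1.5-fold was found for 14 of the 20 (70%), against 82.6% of all kept probe sets. The median residual SD was 0.348 for the members and 0.428 for all kept probe sets. Of the 11 genes with several probe sets, 7 had probe sets both above and below the filter, 3 had all of them kept and 1 had none kept.

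The array with the highest or lowest signal varied among the members. Light pulse replicate 2 was the highest of the 6 arrays for 5 of the 20 probe sets, namely Slc32a1, the 3 of Gabbr1 and Slc12a5, and the lowest for 6, among them Gabrb1, Gabrg1 and both of Gphn. Sham replicate 3 was the highest for 6 and the lowest for 1. The median deviation of the 20 probe sets from the mean of their own group lay between -0.06 and 0.15 on the log2 scale for all 6 arrays. That measure cannot show a shift shared by the arrays of a group. Over all kept probe sets the median log2 signal was 8.90 on sham replicate 3 and 8.76 to 8.82 on the other arrays.

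**Figure D4:**
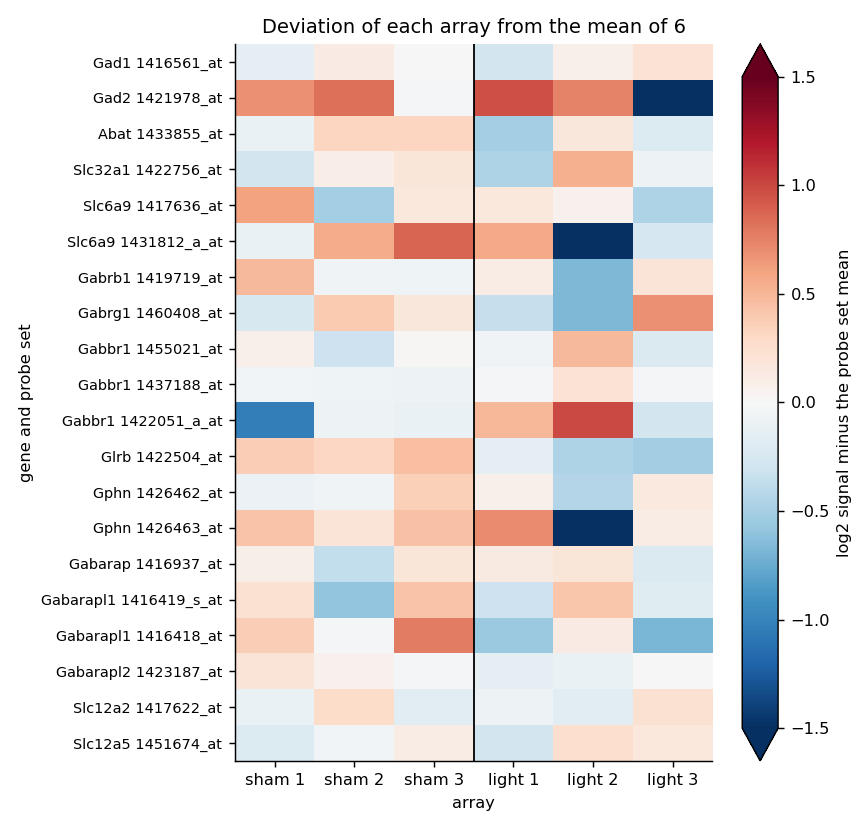
Deviation of each array from the mean of the 6 arrays (log2 signal, colour) for the 20 kept member probe sets, with the colour scale ending at 1.5 on either side. The 3 sham arrays stand to the left of the line and the 3 light pulse arrays to its right. Glrb is above its mean on all sham arrays and below it on all light pulse arrays, Gad2 is far below on light pulse replicate 3, and Slc6a9 1431812_a_at and Gphn 1426463_at are far below on light pulse replicate 2.

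Other genes of the pathway were read from a further list of 48 genes for glutamine supply, glycine cleavage, chloride channels, receptor trafficking and the like. Of these, 31 had a probe set and 20 genes were kept, with 29 probe sets. No probe set was called, and the median log2 difference was -0.00. At an unadjusted p below 0.05 (limma), 1 was lower and 0 were higher, against 2.21% and 2.11% of all kept probe sets. Without overlap between the groups, 3 were higher after light and 1 was lower, against 5.62% and 4.46% of all kept probe sets. The smallest p belonged to Slc1a1, the neuronal glutamate transporter EAAC1, whose probe set 1448299_at gave 665.2, 397.4 and 710.8 on the sham arrays and 281.2, 328.7 and 243.2 after light. All light pulse arrays lay below all sham arrays, with a log2 difference of -1.02 (SE 0.34, unadjusted p = 0.00936, adjusted p = 0.96, limma). A second Slc1a1 probe set, 1425415_a_at, went the other way, at 43.0, 154.7 and 71.6 against 161.1, 202.6 and 151.9 (log2 difference 1.13, SE 0.64). The third, 1460386_a_at, was below the filter, at 3.6, 3.8 and 8.9 against 8.2, 53.1 and 65.9, also mostly higher after light. Dld, a subunit of the glycine cleavage system, gave 89.8, 348.2 and 283.6 against 75.4, 136.2 and 99.1, with overlap (log2 difference -1.04, SE 0.60). In the other direction stood Slc12a7, the potassium chloride cotransporter KCC4, at 466.8, 979.4 and 736.6 against 998.8, 1181.0 and 1110.0 (log2 difference 0.65, SE 0.32). Slc38a1, a glutamine transporter of neurons, gave 183.8, 130.8 and 197.7 against 318.4, 293.2 and 234.6 (log2 difference 0.73, SE 0.39). For both of these probe sets every light pulse value exceeded every sham value, and the adjusted p was 0.96 (limma) for each. The remaining one without overlap in that direction was Dbi 1438093_x_at (log2 difference 0.34), while the other Dbi probe sets overlapped.

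The captured tissue was checked against marker lists. Of 13 SCN neuron markers 12 had a probe set and 11 genes were kept, while the glutamatergic neuron markers with a probe set, Slc17a6, Tbr1 and Neurod6, did not exceed 74.3. The summed signal of the 14 kept SCN neuron probe sets was 60367 to 70547 on the sham arrays and 75111 to 93679 on the light pulse arrays, without overlap. Vip was the largest part of that sum, at 41694.0, 41960.4 and 30270.7 on the sham arrays and 43194.4, 46396.5 and 64589.1 after light. The median log2 difference of the 14 was 0.17, and Calb1 (-0.18), Syt10 (-0.64) and Rgs16 1451452_a_at (-0.63) were among those below 0. Of the 14, 3 were higher after light without overlap, against 5.62% of all kept probe sets, and 0 were called. The 3 were those of Vip (log2 difference 0.43), Grp (0.17) and 1 of the 3 for Rgs16 (1.03). The 7 genes called higher after light here, Fos, Egr1, Egr2, Nr4a1, Rrad, Pim3 and Dusp1, had summed signals of 5661 to 6090 on the sham arrays and 42866 to 54199 on the light pulse arrays. These genes were chosen by that response on these arrays, so the separation follows from the choice and is no check of the tissue. Light pulse replicate 3 stood apart through Ttr, a choroid plexus gene, at 110323 for one probe set, where the other 5 arrays lay between 63.0 and 295.6. Of 9 choroid plexus and ependyma markers 6 had a probe set, and only Ttr was kept. Below the filter, light pulse replicate 3 was the highest array for Folr1, Kl 1423400_at and Sostdc1 1449340_at. It was not the highest for Foxj1, Otx2 or the other probe sets of Kl and Sostdc1. Choroid plexus also carries NKCC1. On light pulse replicate 3 Slc12a2 1417622_at was at 2352.5, the highest light pulse value. That was below sham replicate 2 (2418.6) and above the other sham arrays (1870.0 and 1791.1). The part of choroid plexus in the Slc12a2 signal was not tested. Without light pulse replicate 3 the log2 difference was -0.69 for Glrb (unadjusted p = 0.0639, adjusted p = 0.94, limma) and -0.58 for Gabarapl1 1416418_at (unadjusted p = 0.126, adjusted p = 0.94, limma). Of 8 endothelium and pericyte markers, all with a probe set, 4 genes were kept, each with 1 probe set. Of these, 2 were lower after light without overlap, against 4.46% of all kept probe sets, namely Rgs5 1417466_at and Flt1 1451756_at. The other probe sets of Rgs5 and Flt1 were below the filter and overlapped. The summed signal of the 4 kept probe sets was 3397 to 5171 on the sham arrays and 2413 to 3053 on the light pulse arrays. Rgs5 was the largest part of it, at 2973.9, 1957.3 and 1736.7 on the sham arrays and 1489.5, 1709.7 and 1537.0 after light. Vip and Rgs5 thus weigh heavily in the SCN neuron and endothelial sums, and neither sum gives the course of its whole list. The part of either list in the lower Glrb signal was not tested. All 10 astrocyte markers had a probe set and 9 genes were kept. These markers, from cells that also carry Slc6a9 and Abat, summed to 51824 to 62200 on the sham arrays and 51970 to 63276 on the light pulse arrays. Leptomeningeal markers summed to 5122 to 15419 on the sham arrays and 4983 to 25299 on the light pulse arrays, highest on light pulse replicate 3, where Slc6a13 was at 80.3. Among them 1 of the 5 kept probe sets, Col1a2 1450857_a_at, was lower after light without overlap, against 4.46% of all kept probe sets. It gave 292.5, 282.8 and 254.1 against 158.2, 71.6 and 64.4 (log2 difference -1.62, SE 0.50, unadjusted p = 0.0064, adjusted p = 0.96, limma). The others overlapped, with log2 differences of 0.02 and 0.37 for Ptgds, 1.24 for Igf2 and -0.00 for Mgp. A second Col1a2 probe set was below the filter, between 41.3 and 145.2, with overlap. The part of these markers in the lower Glrb signal was likewise not tested. Oligodendrocyte markers summed to 68108 to 139109 and 78828 to 132844, and microglia markers to 7040 to 7805 and 6737 to 7632, with overlap in each case.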

How the data were processed

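RNA was measured in 3 light pulse and 3 sham light pulse samples, each 1 pool of 3 mice, with groups taken from the labels. RNA (1 ng) went through 2 rounds of linear amplification. Such amplification starts at the 3' end of transcripts, so a probe set far from it may read low; probe positions were not examined. The deposited signal intensity of each of the 22626 probe sets was made by the authors with MAS5 and scaled per array, with 2% trimmed means of 492.3 to 495.6. The authors' present calls were not used here.

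From the intensities log2 values were computed without an offset and compared with limma 3.58.1 in R 4.3.3 (lmFit, eBayes with an intensity trend, two-sided, threshold 0.05 after Benjamini-Hochberg adjustment) over 10340 probe sets, which is 45.7% of all, by rank 3 signal. The fit was tested on simulated data. A fold is a ratio of geometric means. Correlations between arrays were 0.893 to 0.935 within groups and 0.886 to 0.934 between them. Gene names came from the platform annotation. Promoter windows and gene order came from RefSeq GRCm38.p6.

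Array by array values are given for members at unadjusted p below 0.05, for those whose groups do not overlap and for the member with the highest mean signal of each role. They are also shown for the other kept members. Other pathway genes are those with the 2 smallest p in each direction, counted by gene. The members and lists were chosen with earlier results of these data known. Alternatives changed the filter (none, or 5000 probe sets), the scaling (quantile, or a common 75th percentile), the offset (50), the test (limma without trend, with a replicate block, or Cyber-T with window 101 and prior weight 10), the probe sets (without shared targets, or 1 for each gene), the mean (arithmetic) and the arrays (each omitted in turn).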

Additional observations from a re-analysis of the deposited data

How the results depend on the processing

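No member probe set was called under any of the 16 alternatives, with a smallest adjusted p of 0.889 (limma or Cyber-T). The 2 member probe sets at an unadjusted p below 0.05 became 1 with the stricter filter, quantile normalization, no intensity trend, the replicate block and 1 probe set per gene, and 0 to 2 when single arrays were left out. It was 0 without sham replicate 1, sham replicate 3 or light pulse replicate 3 and 1 without light pulse replicate 1 or 2. The number of probe sets whose groups do not overlap was 2, became 1 with a common 75th percentile or 1 probe set per gene, and was 3 to 5 with an array left out, where fewer arrays are compared. Glrb stayed below 0 throughout, from -0.87 to -0.68 on the log2 scale (limma p 0.0183 to 0.0672, adjusted 0.889 to 1), and Gabarapl1 1416418_at from -0.99 to -0.55 (p 0.0116 to 0.16, adjusted 0.892 to 1). Differences near 0 turned sign. Gad1 was -0.08 with quantile normalization and -0.09 to 0.15 with an array left out. Gabarapl1 1416419_s_at was 0.00 with quantile normalization and -0.35 to 0.16. Slc32a1 was 0.00 with a common 75th percentile, 0.00 with the offset, 0.05 with arithmetic means and -0.27 to 0.23. With single arrays left out Slc6a9 1417636_at was -0.46 to 0.10, Gabrb1 -0.41 to 0.03, Gabbr1 1455021_at -0.06 to 0.29 and Slc12a5 -0.01 to 0.25; the cause was not tested. Same-numbered arrays deviated with correlations of 0.0958, -0.192 and -0.129, so the numbers were not taken as pairs; with the replicate block 1 member probe set was at an unadjusted p below 0.05 and none was called. The median of the members was -0.15, and 0.01 with no filter, over 43 probe sets. An array number of 3 a group limit what can be seen, and the intervals give the size.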
